A study of Mus musculus with 9 samples.

Results

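Transcript levels of mature neutrophils from mouse bone marrow were compared with those of c-kit+ Gr1+ progenitors that carried little or no Mac1, on 6 of the 9 arrays of the series. The 6 arrays were picked by their titles, 3 of neutrophils and 3 of the progenitors, and all 18193 genes that a probe set named singly were compared. The comparison itself and the gene lists below were chosen with earlier results of these data known. The sample titles write the progenitors as Mac1- and the description as Mac1lo/-, and they are called Mac1lo cells here. Both populations came from C57BL/6 mice aged 4 to 10 weeks, male or female, and the labels name no treatment and no engineered allele. The neutrophils were sorted as c-kit- Gr1+ Mac1+ cells. The Mac1lo cells were c-kit+ and Gr1+ and lacked the lineage antigens B220, TER119, CD3, CD4, CD8 and IL7Rα, and their cytology was that of undifferentiated cells or myeloblasts. The remaining 3 arrays, of c-kit+ Gr1+ Mac1+ progenitors, shared the estimate of the spread, and their mean is given beside some results. The labels do not say whether the arrays of a population came from separate mice, so the p-values speak for the spread among these arrays alone, and that spread may be technical.

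Neutrophils are short-lived phagocytes that the marrow makes from dividing precursors. A precursor first fills primary (azurophil) granules with proteases and myeloperoxidase, then leaves the cell cycle, makes secondary (specific) and later gelatinase granules, and segments its nucleus. The finished cell is built to find, engulf and kill microbes with receptors, an oxidase and stored granule proteins. Kit is the receptor for stem cell factor on progenitors, and Mac1 is the integrin of Itgam and Itgb2 that binds complement-coated particles.

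A level below is log2(intensity + 16) of a gene's brightest probe set on 1 array, and a difference is the neutrophil mean minus the Mac1lo mean on that log2 scale, ± its standard error, with 3 arrays in each group. A gene was called when its adjusted p (limma, Benjamini-Hochberg over 18193 genes) was under 0.05. "Rose" and "fell" are used only of called genes and mean higher or lower in neutrophils than in Mac1lo cells. Levels of different genes are not comparable, since probe sets differ in brightness.

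Neutrophil array 1 stood apart from the other arrays. Its levels correlated with those of neutrophil arrays 2 and 3 at r = 0.940 and 0.926 over all genes, against 0.986 between arrays 2 and 3 and at least 0.992 among the Mac1lo arrays. Its median intensity was 61.8, against 45.4 and 40.9 on the other neutrophil arrays and 41.4 to 42.3 on the Mac1lo arrays. The ratio of 3′ to 5′ probe signal, a measure of how complete the amplified RNA was, ran from 1.52 to 1.84 for actin on the neutrophil arrays and from 2.17 to 2.49 on the Mac1lo arrays, and for Gapdh from 2.06 to 2.70 and from 1.92 to 2.16. The part of these array differences in the results was not tested, and a count without neutrophil array 1 is given where it differs by over 1.5 times.

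Between the populations 9570 of 18193 genes were called, 52.6% of those tested. Of these 4109 rose (22.6%) and 5461 fell (30%), and the median difference over all genes was 0.05. The falls were the more numerous at every size up to 32-fold: 2649 genes fell and 1064 rose by at least 4-fold, and 590 fell and 266 rose by at least 16-fold. At the far end the order turned, with 57 genes risen and 29 fallen by at least 64-fold. Without neutrophil array 1 the counts were 4557 and 6045. Levels of at least 10 in Mac1lo cells and under 6 in neutrophils were found for 153 genes, and the reverse for 83. So wide a background means that a list's count says little unless it departs far from these shares. The shares also depend on dim genes: with these left out, 3149 of 10916 genes rose and 5117 fell, and the median difference was -0.41. Falls were thus more common among the brighter genes. A list of bright genes with a moderate excess of falls over 30% may therefore differ little from other bright genes. Lists were not compared with genes of like level. In RNA from many sorted cells at once, fewer cells that express a gene and less RNA of it per cell cannot be told apart.

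**Figure D1:**
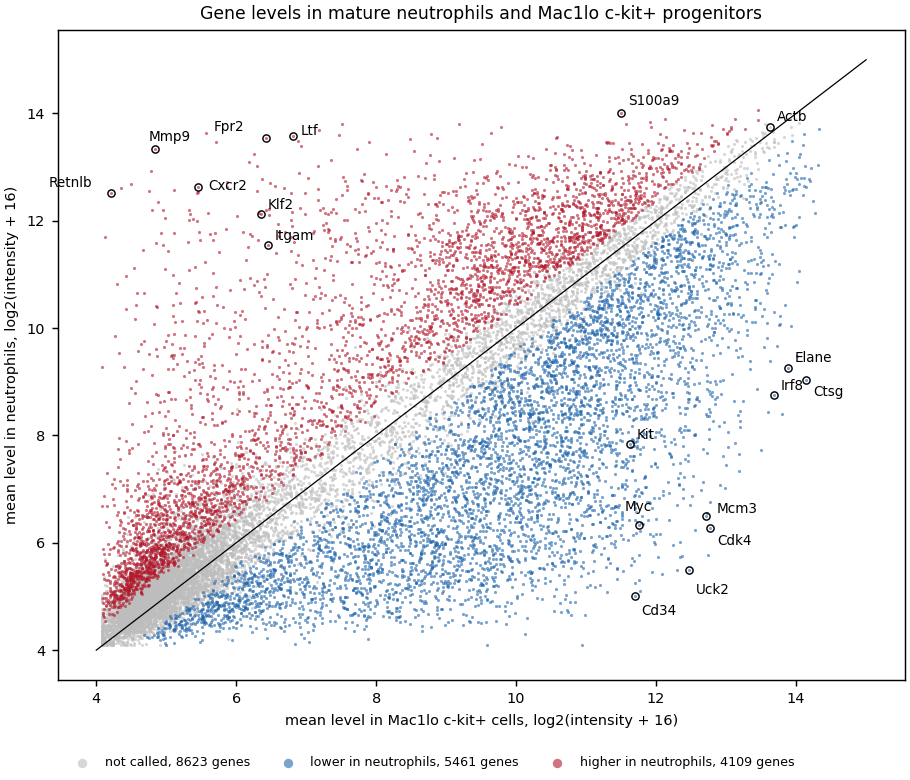
Mean level of each of 18193 genes on 3 Mac1lo arrays (horizontal axis) and 3 neutrophil arrays (vertical axis), both as log2(intensity + 16), with equal levels on the diagonal. Red points are the 4109 genes called higher in neutrophils, blue points the 5461 called lower and grey points the 8623 not called; circled genes are named in the text.

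Of 5 genes listed for the antigens of the sort 3 were measured, and these followed the labels. Ly6c1 and Ly6c2 were not measured, so Gr1 was not checked. Kit was at 11.56, 11.66 and 11.66 on the Mac1lo arrays and at 6.79, 8.28 and 8.44 on the neutrophil arrays, a difference of -3.79 ± 0.37 (adjusted p = 2.3e-05). Itgam, the alpha chain of Mac1, was at 6.49, 6.41 and 6.45 in Mac1lo cells and at 10.996, 11.80 and 11.85 in neutrophils, a difference of 5.10 ± 0.23. Its partner chain Itgb2 was high in both, at 11.55 to 11.61 and 13.74 to 13.84, and rose by 2.22 ± 0.12. None of the 3 overlapped between the groups, as was so of 26.5% of all genes with neutrophils higher and 32.6% with neutrophils lower. The Mac1+ progenitors had Kit at 11.71 and Itgam at 9.69.

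Among the largest rises were Mmp9, resistin-like proteins and receptors. Mmp9, the gelatinase that digests matrix, was at 6.14, 4.26 and 4.13 on the Mac1lo arrays and at 13.21, 13.32 and 13.50 on the neutrophil arrays (8.50 ± 0.49, adjusted p = 6.88e-07). Mac1lo array 1 was the higher of its group, and still far below every neutrophil array. Levels just above 4 are near the lowest the scale gives, so the size and rank of such differences depend on the offset: Mmp9's was 9.11 with an offset of 1 and 7.02 with 64. Retnlb, a secreted resistin-like protein, followed at 8.31 ± 0.16 and its neighbour Retnla at 7.80 ± 0.19. Both were at 4.12 to 4.94 in Mac1lo cells and above 12.4 in neutrophils. H2-Q10, a class I histocompatibility molecule, rose by 8.25 ± 0.18 and Slfn1, a Schlafen protein, by 8.14 ± 0.18. The resistin-like, class I and Schlafen genes have close paralogs, and a probe set can bind a paralog's transcript. The others of the 15 largest rises were Ceacam10, Plbd1, Chil1, Sirpb1a, Bst1, Pla2g7, Scrg1, AA467197, Cxcr2 and Fpr2, at 7.12 to 8.20. They encode, among others, a phospholipase-like granule protein (Plbd1), a chitinase-like lectin (Chil1), a cell surface enzyme of nucleotide metabolism (Bst1) and the hydrolase of platelet-activating factor (Pla2g7).

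Among the largest falls were genes of nucleotide synthesis, ribosome assembly and the cell cycle. Uck2, a kinase that salvages uridine and cytidine, was at 12.48, 12.44 and 12.49 in Mac1lo cells and at 5.81, 5.26 and 5.41 in neutrophils (-6.98 ± 0.17, adjusted p = 1.91e-08). Hadh, an enzyme of mitochondrial fatty acid oxidation, fell by 6.97 ± 0.16 on a probe set that can bind several transcripts, and its 3 probe sets all fell. Cdk4, the kinase that drives cells out of G1, was at 12.74 to 12.81 in Mac1lo cells and at 7.49, 5.71 and 5.60 in neutrophils. Neutrophil array 1 held the most Cdk4, and without it the difference widened from -6.50 to -7.11. Cd34, the sialomucin that marks stem and progenitor cells, fell from 11.66 to 11.72 down to 4.79 to 5.27, and it was already at 6.35 in Mac1+ progenitors. Tsr1 and Nop58 of ribosome assembly, Ung of uracil repair, Snrpf of the spliceosome, Atic of purine synthesis and Hells, a chromatin remodeller, fell by 6.48 to 6.80. The other 5 were Fam131b, Gga2, Poglut2, Abhd14a and Cst7. Fam131b read 4.09 on every neutrophil array, the level of an intensity of 1, and 10.22, 11.30 and 11.32 on the Mac1lo arrays.

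**Figure D2:**
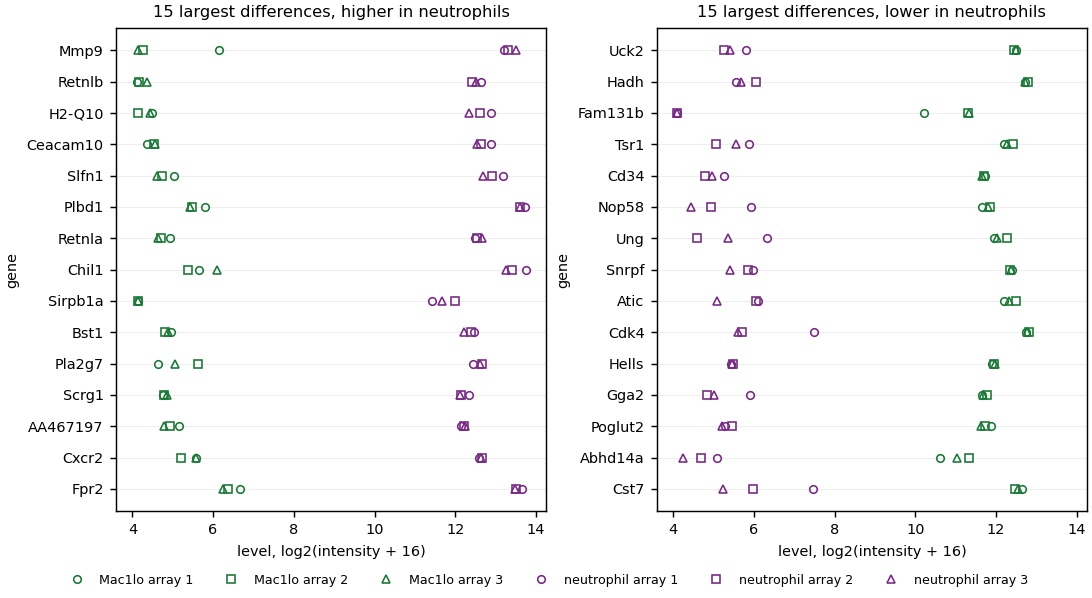
Level of the 15 genes with the largest rise (left) and the 15 with the largest fall (right) on each of 3 Mac1lo arrays (green) and 3 neutrophil arrays (purple), as log2(intensity + 16). The genes were chosen among those whose groups do not overlap. Neutrophil array 1 (circle) lies above arrays 2 and 3 for several of the genes that fell, such as Cdk4 and Cst7.

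Granule proteins split by the stage at which they are made. Of 8 primary granule genes 7 fell, none rose, and the list's median difference was -4.16 against 0.05 over all genes. Of 21 secondary granule genes 20 rose and none fell, with a median of 3.99, and of 17 genes of gelatinase granules and other late neutrophil products 14 rose and 1 fell, with a median of 2.55. Srgn (-0.20), Hp (0.19), Alpl (0.70) and Il1f9 (-0.33) were not called. The gene of the late list that fell was Hpse, the heparanase, by 4.40 ± 0.35.

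Among primary granule genes, Elane, neutrophil elastase, was at 13.99, 13.82 and 13.84 in Mac1lo cells and at 11.11, 8.87 and 7.81 in neutrophils (-4.62 ± 0.67, adjusted p = 0.000306). Ctsg, cathepsin G, read 14.06 to 14.25 against 10.60, 8.81 and 7.70. Ms4a3, a membrane protein of granulocyte precursors, read 13.55 to 13.68 against 9.71, 8.15 and 7.44. In each, neutrophil array 1 held the most and array 3 the least, yet every neutrophil array lay under every Mac1lo array. The summed intensity of the 8 genes was 14100 to 29240 on the neutrophil arrays and 97950 to 110800 on the Mac1lo arrays. Without neutrophil array 1, 7 of 8 were again lower, and Elane's difference was -5.54. Mpo, myeloperoxidase, was looked at after the values were seen: it fell less, by 2.98 ± 0.64, from 13.93 to 14.20 down to 12.80, 10.76 and 9.63.

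Among secondary granule genes the 4 largest rises were Ceacam10, Chil1, Olfm4 and Ltf. Ltf, lactoferrin, was at 7.60, 6.47 and 6.36 in Mac1lo cells and at 13.35, 13.56 and 13.82 in neutrophils (6.77 ± 0.31, adjusted p = 1.67e-07). Olfm4, which marks a subset of neutrophils, rose by 7.07 ± 0.29, and in the Mac1+ progenitors it read 10.62 and Ltf 13.71. The median level of the secondary granule list was 9.09 to 9.75 on the Mac1lo arrays, 13.34 to 13.43 on the Mac1+ arrays and 13.48 to 13.53 on the neutrophil arrays. The late list read differently: 7.01 to 7.76, 7.63 to 7.98 and 12.29 to 12.59. Its largest rises after Mmp9 and Cxcr2 were the stefins Stfa2l1 (6.40 ± 0.22) and Stfa3 (5.93 ± 0.18), inhibitors of cysteine proteases from a cluster of near-identical genes, so their values are uncertain as to the copy.

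Receptors that guide and anchor the cell changed in kind. Of 17 chemoattractant receptors 10 rose, 3 fell and 4 were not called. Cxcr2, the receptor for neutrophil chemokines, was at 5.56, 5.21 and 5.57 in Mac1lo cells and at 12.59, 12.66 and 12.64 in neutrophils (7.18 ± 0.15). The formyl peptide receptor Fpr2 rose by 7.12 ± 0.29, the complement C5a receptor C5ar1 by 6.89 ± 0.14 and the chemokine receptor Ccr1 by 5.78 ± 0.21. Those that fell were Ccr2 (-2.94 ± 0.63) and Cx3cr1 (-2.25 ± 0.16), receptors known from monocytes, and P2ry14 (-1.28), a receptor for UDP-sugars. Ccr2 was still at 8.28 to 9.20 in neutrophils, after at least 11.42 in Mac1lo cells.

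Of 24 adhesion genes 11 rose (45.8%) and 6 fell (25%), against 22.6% and 30% over all genes. Itgax, the alpha chain of a second complement-binding integrin, rose by 5.14 ± 0.22 from 4.90 to 5.34, and Cd9, a tetraspanin, by 3.52 ± 0.14. Itga6, a laminin-binding integrin chain, fell by 2.30 ± 0.31 and Icam1 by 2.16 ± 0.35.

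Sensors of microbes rose as a group: 26 of 32 rose and none fell, with a median difference of 1.94. Nlrp12, a cytosolic receptor that restrains NF-kB signalling, was at 6.39, 6.35 and 6.17 in Mac1lo cells and at 12.61, 12.57 and 12.48 in neutrophils (6.25 ± 0.13, adjusted p = 1.07e-08). The lectins Clec4d and Clec4e, neighbouring genes for receptors of mycobacterial and fungal lipids, rose by 4.66 ± 0.19 and 4.34 ± 0.17. Tlr5, the flagellin receptor, rose by 4.59 ± 0.20 from 5.69 to 6.03. In the Mac1+ progenitors Nlrp12 was at 9.11, Clec4d at 7.90, Clec4e at 8.25 and Tlr5 at 5.42. Tlr1, Tlr3, Tlr9, Irak1, Pycard and Casp1 were not called. Without neutrophil array 1, 27 rose and 2 fell.

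Of 6 subunits and partners of the respiratory burst oxidase 5 rose, with a median difference of 1.002. Cybb, the catalytic subunit, was at 11.02, 11.04 and 11.38 in Mac1lo cells and at 13.38, 13.21 and 13.09 in neutrophils (2.08 ± 0.16). The cytosolic subunits Ncf4 and Ncf1 rose by 1.42 ± 0.17 and 1.11 ± 0.13 and the GTPase Rac2 by 0.89 ± 0.16. Hvcn1, the proton channel, was not called at 0.35.

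Fc and paired receptors rose in 19 of 22 genes measured, a list that also holds Slfn4, a Schlafen and no receptor (6.30). Sirpb1a read 4.13 on each Mac1lo array and 11.43, 11.98 and 11.68 on the neutrophil arrays (7.57 ± 0.16). Its Mac1lo level is near the lowest of the scale, and the difference was 10.37 with an offset of 1 and 5.69 with 64. The immunoglobulin-like receptors Cd300lf and Cd300ld rose by 6.91 ± 0.13 and 6.55 ± 0.17. Lair1, an inhibitory collagen receptor, fell by 2.46 ± 0.21. Fcgr2b, the inhibitory Fc receptor, fell by 0.49 ± 0.18 with an adjusted p of 0.0458, and that call was lost under several alternatives, leaving out array 1 among them (adjusted p = 0.0678), where 1 gene of the list fell.

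Of 38 cytokine and growth factor receptors 24 rose and 8 fell. Il1r2, the decoy receptor for interleukin 1, was at 6.33, 6.10 and 6.32 in Mac1lo cells and at 13.47, 13.13 and 13.13 in neutrophils (6.99 ± 0.15), and the death receptor Fas rose by 5.97 ± 0.17. Met, the receptor for hepatocyte growth factor, went the other way, from 12.21, 12.24 and 12.26 to 5.14, 7.05 and 5.67 (-6.28 ± 0.45). Il6st, the signalling chain shared by the interleukin 6 family, fell by 5.03 ± 0.30 on this probe set, with 2 of its 4 probe sets called. In the Mac1+ progenitors Met was at 7.60 and Il6st at 5.87, against 12.24 and 11.31 in Mac1lo cells.

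Interferon-induced genes were higher in neutrophils: 31 of 39 rose, 3 fell, and the median difference was 2.39 against 0.05 over all genes. The list's median level was 8.09 to 8.25 on the Mac1lo arrays, 7.76 to 8.09 on the Mac1+ arrays and 11.29 to 11.35 on the neutrophil arrays. Rtp4, a receptor transporter protein, was at 6.56, 6.66 and 6.22 in Mac1lo cells and at 12.85, 12.69 and 12.60 in neutrophils (6.23 ± 0.24). Oas3, which makes the 2-5A messenger that activates an RNase, read 6.86, 6.50 and 6.46 against 11.65, 11.66 and 11.82 (5.10 ± 0.20). Rsad2, the antiviral enzyme viperin, read 6.98, 7.10 and 7.49 against 12.54, 12.06 and 11.98 (5.004 ± 0.26). The 3 neutrophil arrays lay close together in all 3 genes.

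Of the 3 that fell, Gbp3, a guanylate-binding GTPase, was at 12.01, 12.12 and 12.16 in Mac1lo cells and at 6.26, 7.51 and 6.91 in neutrophils (-5.20 ± 0.27). Bst2, which tethers budding virus, read 9.56, 9.37 and 9.20 against 5.34, 6.99 and 5.85 (-3.32 ± 0.38), and Ifi47 fell by 1.55. Ifit2, Ifi44l, Iigp1, Mx1 and Mx2 were not called. The counts of 31 and 3 were the same without neutrophil array 1.

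The interferon-stimulated response element is the site at which the factors downstream of interferon receptors bind, and its core was searched as GAAANNGAA on both strands of the 250 bases before each start (RefSeq, GRCm38.p6). Of 36 promoters of 29 listed genes 15 held it (41.7%), against 7.13% of all 32851 promoters, 6.51% of those of genes that rose and 5.92% of those of genes that fell. The 150 bases before the start are shown for 2 genes that rose and the pair that fell most, with the core in capitals, because a core stands in both kinds. Their places are chr5:120777660-120777809, minus strand for Oas3, chr12:26456453-26456602, minus strand for Rsad2, chr3:142559894-142560043, plus strand for Gbp3 and chr8:71537473-71537622, minus strand for Bst2.
Oas3: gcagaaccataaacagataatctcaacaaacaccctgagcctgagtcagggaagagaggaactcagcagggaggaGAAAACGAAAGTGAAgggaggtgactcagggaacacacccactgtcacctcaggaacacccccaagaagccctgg
Rsad2: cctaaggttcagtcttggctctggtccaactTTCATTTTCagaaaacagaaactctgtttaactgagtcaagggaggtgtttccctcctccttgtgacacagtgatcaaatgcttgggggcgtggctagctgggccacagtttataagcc
Gbp3: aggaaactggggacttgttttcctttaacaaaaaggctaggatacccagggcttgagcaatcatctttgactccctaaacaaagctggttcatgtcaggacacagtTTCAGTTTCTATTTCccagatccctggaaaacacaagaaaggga
Bst2: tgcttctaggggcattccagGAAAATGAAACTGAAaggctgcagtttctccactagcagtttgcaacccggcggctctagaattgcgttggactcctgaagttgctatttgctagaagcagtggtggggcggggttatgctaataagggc
Oas3, Gbp3 and Bst2 each held 2 overlapping copies, beginning 75 and 69, 44 and 38, and 130 and 124 bases before the start, and Rsad2 held 1 at 119. Gbp3 has another start with no copy in its window. A match is only a stretch of letters, and it was not measured whether anything bound there.

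Of 39 genes for inflammatory mediators and their feedback 23 rose and 4 fell. Tnfsf13b, the B cell survival factor BAFF, was at 5.56, 5.33 and 5.10 in Mac1lo cells and at 11.91, 12.25 and 11.89 in neutrophils (6.69 ± 0.18). Il1b rose by 5.73 ± 0.16, its antagonist Il1rn by 5.23 ± 0.20 and Nfkbiz, a nuclear regulator of NF-kB targets, by 4.69 ± 0.14. The chemokines Cxcl1 and Ccl9 fell by 2.91 ± 0.81 and 2.72 ± 0.16, with Tnfsf10 (-1.36) and Tgfb1 (-1.20). Cxcl1 rested on a probe set that can bind several transcripts: 1 of its 3 probe sets was called, and without such probe sets its difference was 0.33 (adjusted p = 0.266).

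Signalling proteins behind these receptors rose in 37 of 60 genes and fell in 7. The Src-family kinase Fgr was at 5.84, 5.98 and 5.78 in Mac1lo cells and at 12.93, 12.69 and 12.56 in neutrophils (6.86 ± 0.15). Mapk13, a p38 kinase, rose by 5.53 ± 0.18 and Dusp1, a phosphatase of such kinases, by 4.78 ± 0.21. Rgs10, which shortens G-protein signals, fell by 3.77 ± 0.24 and Grk3, a kinase that silences receptors, by 3.30 ± 0.29. Of 43 genes of granule release 22 rose and 6 fell. The SNARE protein Stx11 rose by 3.52 ± 0.16, and the GTPases Rab20 and Rab37 by 3.55 ± 0.27 and 3.38 ± 0.29. Rab38, a GTPase of lysosome-related organelles, fell by 3.29 ± 0.18. Without neutrophil array 1, 23 rose and 10 fell.

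Of 60 genes of the actin cytoskeleton 27 rose, 8 fell and 25 were not called. Gsn, gelsolin, which severs actin filaments, read 9.40 to 9.54 against 13.15 to 13.18 (3.67 ± 0.13, all 6 probe sets higher), and Ssh2, a phosphatase that activates cofilin, rose by 3.26 ± 0.17. Evl, which promotes filament growth, fell by 4.50 ± 0.23 and Stmn1, a microtubule destabiliser of dividing cells, by 3.42 ± 0.17. The count depends on the scale: 42 rose and 6 fell after quantile normalization. The S100 and annexin list split 9 to 5 among 19. S100a6 rose by 5.57 ± 0.21 and S100a9, a subunit of calprotectin, by 2.50 ± 0.21, while S100a10 fell by 4.51 ± 0.38.

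The machinery of DNA replication and mitosis fell almost as a whole. Of 49 replication genes 48 fell and none rose, with a median difference of -4.08, and of 51 mitosis genes 49 fell and none rose, with a median of -3.26. The exceptions were Orc2 (-0.18), Pttg1 (0.20) and Kif23 (0.30), not called. On the arrays the replication list's median level was 11.42 to 11.49 in Mac1lo cells, 11.32 to 11.49 in Mac1+ progenitors and 7.23 to 7.63 in neutrophils. For mitosis the values were 11.11 to 11.23, 11.83 to 12.08 and 7.19 to 8.34. For both lists every neutrophil array lay below every array of the progenitor populations.

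Mcm3, part of the ring helicase that opens the replication fork, was at 12.79, 12.63 and 12.74 in Mac1lo cells and at 6.44, 6.31 and 6.76 in neutrophils (-6.21 ± 0.17, adjusted p = 1.99e-08). Pold2, of DNA polymerase delta, fell by 6.02 ± 0.16, Cdc6, which loads the helicase at origins, by 5.83 ± 0.25 and Pola1, the catalytic subunit of the priming polymerase, by 5.59 ± 0.15. The centromere proteins Cenph and Cenpk fell by 4.79 ± 0.15 and 4.77 ± 0.21, and Zwilch and Kntc1 of the spindle checkpoint by 4.76 ± 0.34 and 4.69 ± 0.25. Zwilch and Kntc1 were lowest on neutrophil array 1, at 5.27 and 5.33, unlike the primary granule genes.

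Regulators of G1 moved both ways: 23 of 38 fell and 9 rose. After Cdk4, the largest falls were of Skp2, which marks cell cycle inhibitors for destruction (-5.16 ± 0.17), the repressor E2f6 (-4.89 ± 0.18) and cyclin Ccne2 (-4.59 ± 0.23). The antiproliferative proteins Tob1 and Btg2 rose by 4.54 ± 0.19 and 3.53 ± 0.17. Of 42 repair and checkpoint genes 37 fell, among them Timeless (-5.84 ± 0.36), Chek1 (-5.45 ± 0.21) and Exo1 (-5.22 ± 0.20). Xpc, which finds bulky lesions, was the single riser at 0.56 ± 0.17, and it was not called after centring each array on its median (adjusted p = 0.07).

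E2F factors switch on replication genes, and the promoters of mitosis genes are known for CCAAT boxes and for the cell cycle homology region (CHR). Sites were searched on both strands as TTTCCCGC, TTTCGCGC, TTTGCCGC or TTTGGCGC for E2F, CCAAT, and TTTGAA for the CHR, and a CCAAT box can share letters with a CHR. An E2F site stood in 9 of 49 promoters of replication genes (18.4%), against 1.86% of all promoters, 4.57% for genes that fell and 1.89% for genes that rose. A CCAAT box stood in 36 of 47 promoters of mitosis genes (76.6%), against 33.8% of all, 37.3% for genes that fell and 32.8% for genes that rose. The CHR stood in 17 of the same 47 (36.2%), against 16% of all, 11.7% for genes that fell and 10.6% for genes that rose. It also stood in 27.8% of secondary granule promoters and 25% of interferon-induced ones, lists that rose. The 150 bases before the start are shown for Cdc6 (chr11:98908001-98908150, plus strand) and Pola1 (chrX:93632156-93632305, minus strand) with their E2F sites in capitals, and for 1 of 3 starts of Cenpk (chr13:104228816-104228965, plus strand) with its CCAAT boxes in capitals, as examples of the 2 lists.
Cdc6: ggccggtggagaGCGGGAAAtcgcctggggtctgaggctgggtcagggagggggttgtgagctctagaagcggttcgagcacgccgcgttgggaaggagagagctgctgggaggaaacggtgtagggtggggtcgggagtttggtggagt
Pola1: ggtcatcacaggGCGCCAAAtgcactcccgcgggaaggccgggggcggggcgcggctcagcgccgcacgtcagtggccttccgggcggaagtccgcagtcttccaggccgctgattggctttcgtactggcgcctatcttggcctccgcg
Cenpk: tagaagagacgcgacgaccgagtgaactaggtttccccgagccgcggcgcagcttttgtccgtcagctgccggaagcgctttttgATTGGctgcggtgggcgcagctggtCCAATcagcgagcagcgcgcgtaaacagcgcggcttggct
Both E2F sites began 138 bases before the start, and the CCAAT boxes of Cenpk at 65 and 40, 1 on each strand. The other named replication genes, Mcm3 and Pold2, held no such E2F site in the window.

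The third search tied to a list was for C/EBP factors, which direct granule genes, as TTNNGCAA. It stood in 5 of 18 promoters of secondary granule genes (27.8%), against 9.56% of all, 8.35% for genes that rose and 7.4% for genes that fell. In the late neutrophil list it stood in 2 of 20 (10%). Ltf is shown as the named gene that held it (chr9:111019142-111019291, plus strand), with the match in capitals, 75 bases before the start.
Ltf: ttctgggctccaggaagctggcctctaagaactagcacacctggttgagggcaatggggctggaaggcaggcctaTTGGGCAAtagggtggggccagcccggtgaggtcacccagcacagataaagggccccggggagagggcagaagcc
The counts behind these shares are small, and promoters of one gene can overlap. Searches on both strands were also made for PU.1, a factor of myeloid genes, as GAGGAAGT, and for the E-box CACGTG, at which Myc binds. PU.1's letters stood in 2.44% of all promoters, 2.99% for genes that rose and 2.22% for genes that fell. They stood in 7 of 43 promoters of ribosome assembly genes (16.3%), in 3 of 18 of secondary granule genes (16.7%) and in 0 of 20 of the late list. The E-box stood in 3 of the 43 (6.98%) against 6.02% of all.

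**Figure D3:**
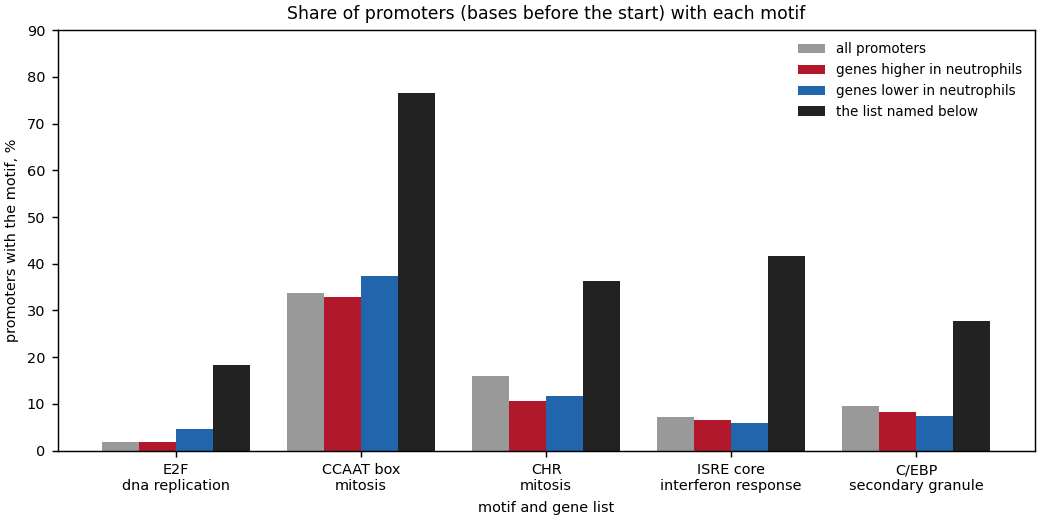
Percent of promoters (250 bases before the start, both strands) that held each motif, for all promoters of the RefSeq table (grey), genes called higher (red) and lower (blue) in neutrophils, and the gene list written under the motif (black). The black bars stand at 18.4, 76.6, 36.2, 41.7 and 27.8%, each above the bars for all promoters and for genes called in either direction.

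Ribosome assembly had the lowest median of the 56 lists. Of 45 genes of ribosomal RNA synthesis and processing 43 fell and 1 rose, with a median difference of -4.25. After Tsr1 and Nop58, Gar1, a protein of the RNA-guided pseudouridine synthase, was at 12.65, 12.83 and 12.71 in Mac1lo cells and at 6.75, 6.61 and 6.28 in neutrophils (-6.18 ± 0.16), and Noc2l read 11.10 to 11.25 against 5.16 to 5.25 (-5.98 ± 0.15). The riser was Polr1a, the largest subunit of RNA polymerase I, at 1.21 ± 0.19, with 4 of its 5 probe sets called higher. Ribosomal proteins fell in 39 of 43 genes but less far, with a median of -1.37. Rpl14 fell by 4.99 ± 0.13, Rpl12 by 4.17 ± 0.25 and Rps6 by 3.30 ± 0.14. The list's median level was 13.83 to 13.99 on the Mac1lo arrays and 12.94, 12.18 and 11.98 on the neutrophil arrays, with array 1 the highest of the 3. Ribosomal protein genes have many processed copies, to which probes can also bind.

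Of 43 translation factors and tRNA synthetases 40 fell and 2 rose, and of 53 mitochondrial ribosomal proteins 49 fell and none rose (median -2.23 in both). Eef1e1, of the synthetase complex, fell by 5.49 ± 0.22, the isoleucine and phenylalanine synthetases Iars and Farsb by 5.21 ± 0.13 and 4.80 ± 0.18, and Mrps2 by 5.53 ± 0.24. Eif4ebp1, which holds back cap-dependent translation, rose by 0.98 ± 0.16. The tryptophan synthetase Wars was called higher on its brightest probe set (0.74 ± 0.19), while 3 of its 4 probe sets were called lower.

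Mitochondrial energy genes fell broadly and by less. Of 55 subunits of the respiratory chain and ATP synthase 47 fell and none rose, with a median of -1.18. Atp5g1, a ring subunit of ATP synthase, read 11.61, 10.87 and 11.06 against 7.40, 7.34 and 6.77 (-4.01 ± 0.25), and Ndufa5 of complex I fell by 3.97 ± 0.16. Of 23 genes of the tricarboxylic acid cycle 20 fell and none rose. Idh3a, the NAD-dependent isocitrate dehydrogenase, was at 12.49, 12.55 and 12.47 in Mac1lo cells and at 6.50, 7.35 and 6.76 in neutrophils (-5.64 ± 0.21), and Fh1, fumarase, fell by 4.53 ± 0.22. Fatty acid oxidation fell in 15 of 25 genes and rose in 4. Besides Hadh, Decr1 fell by 4.48 ± 0.20 and Echs1 by 3.79 ± 0.15, while the lipase Lipe rose by 2.13 ± 0.17. After quantile normalization 7 rose and 13 fell.

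Genes of sugar metabolism were split. Of 36 genes of glucose uptake, glycolysis, the pentose phosphate path and glycogen 11 rose (30.6%) and 14 fell (38.9%), with a median of -0.04. Over all genes 22.6% rose and 30% fell. The lactate transporters changed places: Slc16a1 was at 11.36, 11.51 and 11.46 in Mac1lo cells and at 5.96, 5.33 and 4.71 in neutrophils (-6.11 ± 0.28), and Slc16a3, a lactate exporter of glycolytic cells, at 6.33, 6.20 and 5.99 against 12.11, 11.23 and 11.22 (5.35 ± 0.25). Of the probe sets for Slc16a1, 1 of 2 was called. The glucose transporter Slc2a3 rose by 4.82 ± 0.16 with all 4 probe sets higher, and Slc2a6 by 4.48 ± 0.19. In Mac1+ progenitors Slc16a1 was at 10.89, Slc16a3 at 9.33 and Slc2a3 at 11.07.

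Genes for the synthesis of nucleotides and serine mostly fell. Of 36 genes of nucleotide, serine and folate-linked synthesis 32 fell and 1 rose, with a median of -3.64, and without neutrophil array 1, 2 rose. Ctps, which makes CTP, fell by 6.07 ± 0.17, Psat1, of serine synthesis, by 6.00 ± 0.16 and Paics, of purine synthesis, by 5.85 ± 0.16. The riser was Cda, cytidine deaminase, at 2.08 ± 0.34. Of 26 cholesterol genes 14 fell and 7 rose: Dhcr7 and Fdps fell by 3.40 ± 0.19 and 3.12 ± 0.22, and Msmo1 and the cholesterol exporter Abca1 rose by 1.98 ± 0.29 and 1.94 ± 0.14. After quantile normalization 9 cholesterol genes fell. Haem and iron genes fell in 11 of 22 and rose in 8. The haem synthesis enzymes Cpox and Alad fell by 4.31 ± 0.22 and 4.26 ± 0.26 and the transferrin receptor Tfrc by 3.80 ± 0.37. The metalloreductase Steap4 was at 4.73, 4.57 and 4.46 in Mac1lo cells and at 9.98, 10.78 and 11.19 in neutrophils (6.06 ± 0.31), and Hmox1, which breaks down haem, rose by 3.20 ± 0.16.

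**Figure D4:**
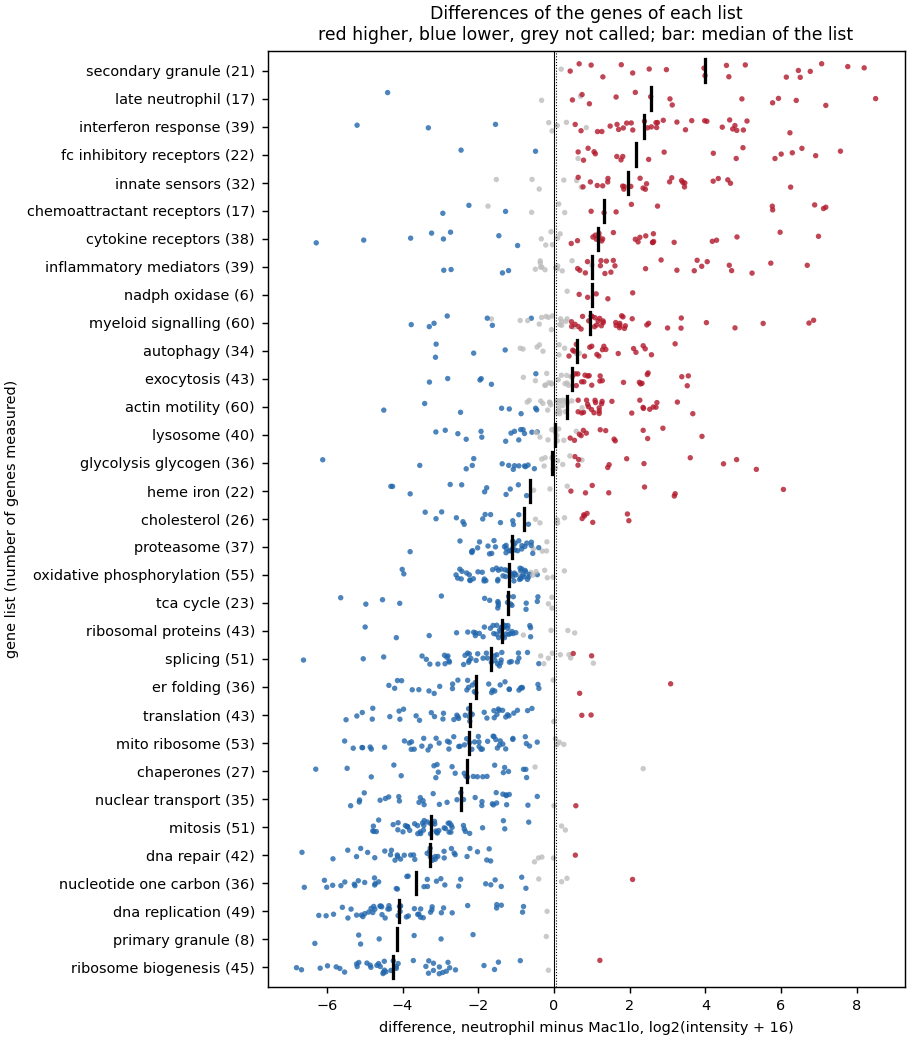
Difference of every measured gene of 33 lists, neutrophil minus Mac1lo on the log2(intensity + 16) scale, with 1 point per gene (red called higher, blue called lower, grey not called), a black bar at the list's median and a dotted line at the median of all genes, 0.05. Lists of receptors, late granules and interferon-induced genes lie to the right, and ribosome assembly, primary granules and replication furthest to the left.

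Genes of protein folding and of the proteasome mostly fell. Of 27 chaperones 25 fell and none rose (median -2.29), of 36 genes of the endoplasmic reticulum 33 fell and 2 rose (median -2.07), and of 37 proteasome genes 33 fell and none rose (median -1.10). Hsph1, a partner of Hsp70, was at 11.95, 12.26 and 11.86 in Mac1lo cells and at 6.54, 5.69 and 4.95 in neutrophils (-6.30 ± 0.36), and Fkbp4, a partner of Hsp90, fell by 5.47 ± 0.18. In the reticulum, Rpn2 of the glycosylation complex fell by 4.36 ± 0.31 and the chaperone Hyou1 by 4.14 ± 0.22. The stress factor Ddit3 rose by 3.08 ± 0.24 and Edem1 by 0.68 ± 0.14. With its probe sets averaged Edem1 differed by 0.16 and was not called (adjusted p = 0.335). Psmd7 fell furthest among proteasome genes, by 3.80 ± 0.22, though 1 of its 3 probe sets was called.

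Autophagy went the other way, with 19 of 34 genes higher and 4 lower. Atg16l2 rose by 3.20 ± 0.27 and the starting kinase Ulk1 by 2.58 ± 0.18, whereas Atg10 fell by 3.13 ± 0.14 and Gabarapl1 by 3.11 ± 0.40. Of 40 lysosomal genes 14 rose (35%) and 15 fell (37.5%), against 22.6% and 30% over all genes. Cln3 rose by 2.88 ± 0.15, and the glycosidases Glb1 and Gla fell by 3.12 ± 0.28 and 2.87 ± 0.32. Of 25 antioxidant genes 16 fell and 6 rose. The glutathione transferase Gstm1 was at 13.08 to 13.34 in Mac1lo cells and at 8.67, 8.06 and 7.72 in neutrophils (-5.04 ± 0.24, all 4 probe sets lower), and the peroxiredoxins Prdx4 and Prdx2 fell by 4.55 ± 0.24 and 3.98 ± 0.28. Txnip, which binds thioredoxin, rose by 1.97 ± 0.17.

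RNA processing and nuclear traffic fell in most genes. Of 51 splicing genes 41 fell and 2 rose (Clk1 by 0.99 ± 0.18 and Rbm5 by 0.51 ± 0.14), and of 35 nuclear pore and import genes 33 fell and 1 rose (Kpna4 by 0.58 ± 0.12). Rbm5 lost its call after centring (adjusted p = 0.0731), where 1 splicing gene rose, and 5 rose after quantile normalization. Snrpa1 fell by 5.04 ± 0.18, the exportin Cse1l by 5.37 ± 0.15 and the pore protein Nup205 by 5.15 ± 0.21. The nuclear envelope is reshaped as the nucleus segments, and its list gave 12 falls and 3 rises among 21. That list also holds Tmem97 and, shared with the cholesterol list, Dhcr7 and Tm7sf2, and each of these fell. Syne1, a long protein that links the nucleus to the cytoskeleton, was at 8.39, 8.54 and 8.32 in Mac1lo cells and at 12.43, 12.56 and 12.52 in neutrophils (4.09 ± 0.15), and Syne2 rose by 3.67 ± 0.42. Banf1, which binds chromatin to the envelope, fell by 4.32 ± 0.14. Lbr and Lmnb1, named after their values were seen because they bear on nuclear shape, were not called at 0.26 and -0.01. After quantile normalization 7 of the 21 rose and 9 fell.

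Of 63 chromatin enzymes 33 fell and 22 rose. Padi4, which converts histone arginine to citrulline and is known for its part in extracellular traps, was at 6.44, 6.14 and 6.33 in Mac1lo cells and at 13.37, 12.94 and 12.74 in neutrophils (6.72 ± 0.20), and the demethylase Kdm6b rose by 4.29 ± 0.24. Uhrf1, which maintains DNA methylation at replication, fell by 5.25 ± 0.29 and the heterochromatin protein Cbx5 by 5.31 ± 0.29. Of 13 histone genes 7 fell (53.8%) and 4 rose (30.8%), against 30% and 22.6% over all genes. H2ax fell by 2.64 ± 0.14, and H1f2 and the replacement variants H3f3b and H3f3a rose by 2.20 ± 0.21, 2.05 ± 0.30 and 1.90 ± 0.19.

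Of 84 transcription factors of blood cells 40 rose and 20 fell. Klf2, a factor of quiescent leukocytes, was at 6.34, 6.29 and 6.41 in Mac1lo cells and at 12.39, 12.03 and 11.95 in neutrophils (5.77 ± 0.21). Myc, the driver of growth genes, was at 11.86, 11.74 and 11.66 against 6.80, 6.04 and 6.17 (-5.41 ± 0.24). Tfec, a relative of Mitf, fell by 5.78 ± 0.22, and Irf8, a factor of monocyte fate, by 4.93 ± 0.34 from 13.63 to 13.72. Irf8 was at 9.33 in Mac1+ progenitors, near the 8.35 to 9.32 of neutrophils, while Myc was still at 10.98 and Tfec at 12.37 there. Further factors were named after their values were seen, for their known parts in granulocytes: Mxd1, a Myc antagonist, rose by 4.76 ± 0.15 and Cebpd by 1.63 ± 0.18, and Cebpa fell by 1.76 ± 0.26 and Gfi1 by 2.20 ± 0.22.

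Of 29 stem and progenitor genes 12 fell (41.4%), 6 rose (20.7%) and 11 were not called, against 30% and 22.6% over all genes. Not all of the list went with Cd34. Cd48 fell by 4.81 ± 0.27, the homeobox gene Hoxa9 by 4.40 ± 0.44 and Sox4 by 4.22 ± 0.63. Sox4 was at 8.03 on neutrophil array 1 and at 5.34 and 5.32 on the others. Dach1 and Tgm2 rose by 2.73 ± 0.51 and 2.52 ± 0.28.

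Among 29 genes of cell death 12 rose (41.4%) and 8 fell (27.6%), against 22.6% and 30% over all genes. Bcl2, which blocks apoptosis, read 11.58, 11.72 and 11.70 in Mac1lo cells and 9.24, 7.30 and 7.23 in neutrophils (-3.74 ± 0.47, and -4.40 without neutrophil array 1), and 2 of its 5 probe sets were called. Bmf, which promotes apoptosis, rose by 3.61 ± 0.50 and Ripk3, of necroptosis, fell by 3.06 ± 0.17. Antigen presentation gave 6 rises (30%) and 4 falls (20%) among 20, not far from the shares over all genes. Cd86, a costimulator of T cells, rose by 4.04 ± 0.14 and Cd74, the invariant chain, by 3.30 ± 0.21. H2-DMa fell by 3.77 ± 0.20 and Erap1 by 3.75 ± 0.48.

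**Figure D5:**
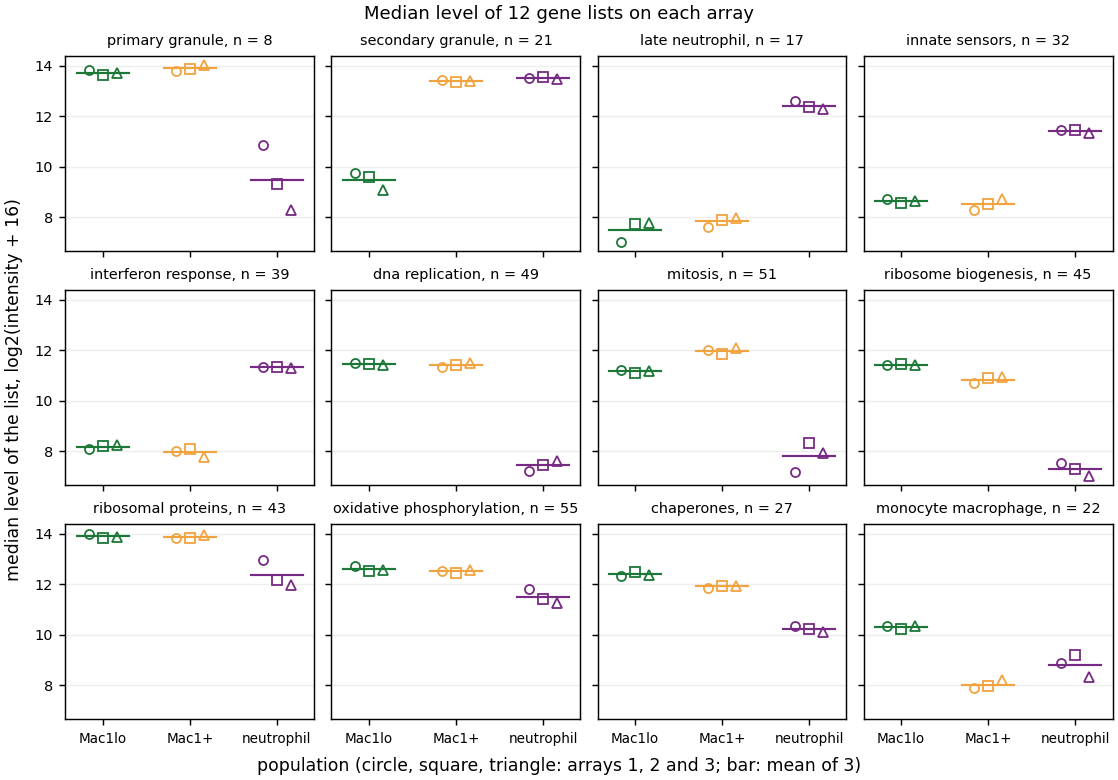
Median level of 12 gene lists, as log2(intensity + 16), on each of the 3 Mac1lo (green), 3 Mac1+ (orange) and 3 neutrophil (purple) arrays, with a bar at the mean of 3. Secondary granule genes read 13.34 to 13.43 in Mac1+ progenitors and 13.48 to 13.53 in neutrophils, late neutrophil, sensor and interferon-induced genes are highest in neutrophils, and primary granule genes differ among the neutrophil arrays, from 8.28 to 10.86.

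Markers of other cells were checked in both populations. Over all genes 22.6% rose and 30% fell, and each list's own shares are given in brackets. Monocyte and macrophage markers fell in 9 of 22 genes (40.9%) and rose in 8 (36.4%). Their summed intensity was 36880 to 49720 on the neutrophil arrays and 69790 to 75640 on the Mac1lo arrays. Ms4a6c (-4.52 ± 0.25), Ly86 (-4.22 ± 0.40) and F13a1 (-3.49 ± 0.29) fell, from levels of 12.19 to 13.64 in Mac1lo cells, and Lgals3 rose by 2.98 ± 0.26. Dendritic markers gave 5 falls (35.7%) and 2 rises (14.3%) among 14, with sums of 2014 to 2663 and 1466 to 1695. Flt3 read 4.10 to 4.13 on the neutrophil arrays. T and NK markers gave 3 rises (Cd3d, Il7r and Gzma, 21.4%) and 2 falls (14.3%) among 14, with sums of 677.2 to 1298 and 7869 to 8298. After centring 1 rose. Nkg7, a cytotoxic granule protein, fell by 5.85 ± 0.55 from 12.89 to 12.97, and this gene alone made up most of the Mac1lo sum. The median level of the T and NK list was 5.02 in Mac1lo cells and 4.96 in neutrophils. Cd3d, a chain of the T cell receptor complex, rose by 3.07 ± 0.17, its partner Cd3e (-0.30) was not called and Cd3g fell by 0.48 ± 0.14. Of 8 genes for the lineage antigens of the progenitor sort, Cd3d, Ptprc, Il7r and Cd8b1 rose and Cd3g fell. Il7r lost its call under several alternatives, leaving out neutrophil array 1 among them (adjusted p = 0.0871), and Cd3g without Mac1lo array 2 (adjusted p = 0.0822). Ptprc, the common leukocyte antigen of which B220 is a form, rose by 1.30 ± 0.13 from 12.32 to 12.48.

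Of 13 B cell markers Cd79b, Igll1 and Ebf1 fell (23.1%) and none rose, and without neutrophil array 1, 6 fell. Their summed intensity was 4637 to 8179 in neutrophils and 18020 to 19730 in Mac1lo cells. Ebf1 was at 13.24 in Mac1lo cells and 10.25 in neutrophils on its brightest probe set, and its other 4 probe sets read 4.48 to 4.99 and 4.68 to 5.71 and were not called. That brightest probe set gave much of the list's sum in Mac1lo cells. Igll1 rested on a probe set that can bind several transcripts, and without such probe sets its difference was 0.19 (adjusted p = 0.656). The list's median level was 6.02 in Mac1lo cells and 6.08 in neutrophils. Erythroid markers gave 3 rises and 3 falls among 12, 25% each, against 22.6% and 30% over all genes. Their summed intensity was 419.5 to 874.5 in neutrophils and 566.9 to 684.5 in Mac1lo cells. Megakaryocyte markers gave 2 rises (20%) among 10, Itgb3 (2.29 ± 0.12) and Gp1bb (2.63 ± 0.56). The list's sums were 2702 to 2861 and 735.1 to 831, and 4 rose after quantile normalization. Eosinophil, basophil and mast cell markers gave 4 rises and 4 falls among 14 (28.6% each), with sums of 9564 to 12150 and 4903 to 5780. After centring 2 rose. The basophil protease Mcpt8 was at 9.57 to 9.73 in Mac1lo cells and 4.88 to 6.20 in neutrophils. Stromal and vessel markers gave 3 rises (25%) and 2 falls (16.7%) among 12, with sums of 834.5 to 2083 and 1823 to 2057. Col1a2, a collagen chain, was at 9.59, 7.44 and 6.18 on neutrophil arrays 1, 2 and 3 and at 4.17 to 4.74 in Mac1lo cells, so it too was highest on neutrophil array 1. The part of these cells in the results was not tested. Of 4 genes that report sex, Eif2s3y rose by 0.61 ± 0.14, Xist rose by 1.10 ± 0.27 and Uty fell by 1.70 ± 0.37, and the labels give either sex for both populations. Without probe sets that can bind several transcripts Xist differed by -0.029. Another probe set of Uty was called higher (1.67), and Uty lost its call after quantile normalization (adjusted p = 0.104) and Eif2s3y after centring (adjusted p = 0.0571).

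Some of the brightest genes held alike on their brightest probe set. The 10 with the highest level among genes not called with a difference under 0.2 were Actg1, Txn1, Tmsb4x, Itm2b, Actb, Pgd, Rab5if, Rap1b, Vim and Arpc2. Actb, beta actin, was at 13.64, 13.60 and 13.64 in Mac1lo cells and at 13.76, 13.73 and 13.76 in neutrophils (0.12 ± 0.12). Txn1, thioredoxin, differed by -0.01 ± 0.14 and Pgd, of the pentose phosphate path, by -0.02 ± 0.12. The sign of such small differences turned with the scaling, and after quantile normalization Actb (0.37), Vim, Tmsb4x and Arpc2 were called higher. They also depended on the probe set. With a gene's probe sets averaged, Arpc2 (1.07, adjusted p = 0.000188) and Rap1b (0.69, adjusted p = 0.00236) were called higher and the others were not called. Without probe sets that can bind several transcripts Pgd was called higher (0.40, adjusted p = 0.0259).

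Of 260 named genes that were called, 144 had several probe sets, 110 of these had at least 2 called in the gene's direction, and 6 had a probe set called the other way. Of the 260, 35 rested on a probe set marked as able to bind several transcripts, among them Uck2, Hadh, Tsr1 and Cdk4. Centring each array on its median moved the median difference of all genes from 0.05 to -0.12 and the counts to 3404 rises and 5851 falls.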

How the data were processed

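Biotin-labelled RNA, amplified in 2 cycles per the labels, was hybridised to mouse expression arrays. The values used are the intensities as deposited by the authors, 1 per probe set and array on a linear scale. Their summarisation and scaling are not given in the sources used here. Of the probe sets 34945 named 1 gene, 932 several and 9160 none, and 64 were controls; only the first were used, with 99.42% matched to the reference by gene ID. Values below 0 were set to 0, 16 was added and log2 taken. Each gene was represented by its probe set with the highest mean over 9 arrays. A linear model of the 3 populations was fitted with limma 3.58.1 in R 4.3.3 (eBayes, Benjamini-Hochberg over 18193 genes), called at an adjusted p under 0.05. The code was run on simulated data with few changed genes and the same noise on every array. Such data differ from the real arrays, so that run does not speak for the calls made here.

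Lists held 1893 memberships in 56 lists, 1703 of them measured. The comparison and the lists were chosen with earlier results of these data known. The named genes were the sort antigens, the 15 largest non-overlapping changes each way above the median level, up to 4 called members of each list with the largest difference and up to 2 in the other direction (or the 2 with the smallest p), 10 bright genes held alike and 10 genes with opposed probe sets; those named after their values were seen are marked. Alternatives were quantile normalization, centring, offsets of 1 and 64, leaving out dim genes (under the 40th percentile) or probe sets that bind several transcripts, other probe set summaries, another variance prior, only the 2 populations, array weights, a replicate block, a 2-fold threshold and leaving out each array. Arrays give no read depth; the number of arrays limits the precision. Promoters came from RefSeq (GRCm38.p6): 14367 of 18193 genes had one, 18006 promoters in all. Figures were drawn with matplotlib 3.10.9 in Python 3.11.15.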

Additional observations from a re-analysis of the deposited data

How the results depend on the processing

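Of 4109 rises and 5461 falls, the counts moved by over 1.5 times with array weights (6202 rises), with a test for a change of at least 2-fold (1403 rises, 3106 falls) and when every probe set was tested on its own (10113 rises, 10187 falls). Leaving out 1 array at a time gave 3330 to 4601 rises and 4977 to 6045 falls, the highest of each without neutrophil array 3 and neutrophil array 1. Rises were 42.9% of calls, and 50.6% after quantile normalization and 36.8% after centring. Over 270 named genes, 5541 of 5653 comparisons with an alternative kept direction and call, 82 lost the call, 8 gained one and 22 turned. Most of these genes were picked for large differences in the same fit, so that count does not speak for other genes. Of all 9570 calls 88% were kept after quantile normalization, 91.9% after centring and 47.1% with the 2-fold test. Leaving out 1 array at a time kept 86.2 to 96.2%.

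The turned values were as follows, and their cause was not tested. Without probe sets that can bind several transcripts Cxcl1 was 0.33, Igll1 0.19, Xist -0.029 and Pgd 0.40. With all probe sets of a gene averaged, Wars was -1.37, Txn1 0.14, Itm2b 0.27, Actb -0.236 and Pgd 0.073. After quantile normalization Actg1 was 0.18, Txn1 0.30, Itm2b 0.082, Pgd 0.19 and Rab5if 0.14. After centring Tmsb4x was -0.012, Actb -0.040, Rap1b -0.069, Vim -0.014 and Arpc2 -0.070. Leaving out 1 array at a time put Txn1 between -0.106 and 0.051.

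With the replicate number as a block 3943 genes rose and 5326 fell, and 1 named gene lost its call. Deviations of same-numbered arrays from their group means correlated at r = -0.063, -0.060 and 0.015 over genes, and those of differently numbered arrays at -0.058 to 0.072. With 3 arrays in each group these values cannot decide whether the numbers are a pairing.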

Other observations

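In the comparisons above 1 probe set stood for each gene, and some genes had other probe sets called in the opposite direction. Of 3857 genes with at least 2 called probe sets, 495 (12.8%) had calls both ways. Prkca, the alpha form of protein kinase C, rose by 6.74 on one probe set (from 4.85 to 11.59) and fell by 1.05 on another. Bzw2, a regulator of translation start, rose by 4.00 (from 7.88 to 11.88) and fell by 4.58 (from 10.77 to 6.19). Lpcat2, which makes platelet-activating factor, rose by 4.42 and fell by 3.02. Exd2 gave 5.78 and -2.13, Rpf2 1.96 and -5.56, Pacc1 2.75 and -4.29, Exosc8 2.17 and -4.61, Ankrd33b 6.31 and -0.78, Hspa9 0.92 and -5.98, and Ntmt1 2.92 and -3.74. Which transcripts these probe sets bind was not tested.

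Genes that rose or fell by at least 16-fold sometimes lay next to each other in the RefSeq gene order. Of 265 such rises that could be placed, 45 (17%) stood in 22 runs of neighbours, the longest of 3 genes (Ifit1bl1, Ifit1bl2 and Ifit1). Pairs included Retnlb with Retnla, Slfn1 with Slfn4, Clec4d with Clec4e, Itgam with Itgax, Oas2 with Oas3, Il18r1 with Il18rap and Cd177 with Ceacam10. Several of these pairs are paralogs, whose probe sets can share transcripts. Of 589 such falls, 67 (11.4%) stood in 33 runs, the longest Brwd1, Hmgn1 and Get1.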
